A study of Sus scrofa with 23 samples.

Results

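Resident tissue macrophages in pig backfat were followed through 5 genes that these cells are known to express: C1QA (ENSSSCG00000003524), VSIG4 (ENSSSCG00000012364), C5AR1 (ENSSSCG00000029371), MRC1 (ENSSSCG00000011038) and F13A1 (ENSSSCG00000024310). They are 5 of the 25322 genes counted in each of 23 pigs. The members were chosen because they stood higher in group II than in group I in these same pigs, so the differences from group I are given as a description, without a test. Tests were kept for what that choice did not use: beef tallow against coconut oil, males against females, and the way the 5 genes moved together from pig to pig within a diet.

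Macrophages that live in adipose tissue clear dead cells, lipid and debris, and tissue-resident ones are known for scavenger and lectin receptors, complement components and complement receptors. C1q, the first component of the classical complement pathway, is made largely by macrophages outside the liver and binds immune complexes and dying cells. When the number of such cells in a piece of tissue differs between animals, genes restricted to them are expected to differ by about the same factor.

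The study asked how corn dried distillers grains with solubles (cDDGS), a by-product of ethanol production, and the kind of added fat change gene expression in backfat, the subcutaneous fat of the back. The 7 control pigs of group I (4 females, 3 males) were fed rapeseed oil without cDDGS. cDDGS was added to the other diets, with rapeseed oil for the 6 pigs of group II (3 of each sex), with beef tallow for the 5 pigs of group III (3 of them male) and with coconut oil for the 5 pigs of group IV (3 of them female). All were crossbred fattening pigs of 1 farm on diets matched for protein and energy, the females were gilts and the males barrows, that is, castrated. The paper reports that the control diet also held slightly less crude fat, less fiber and slightly more starch than the cDDGS diets. No group received beef tallow or coconut oil without cDDGS, so fat and cDDGS can be compared only as far as these 4 diets allow. Each pig gave 1 library from total RNA depleted of ribosomal RNA. The paper states that the RNA of these samples was degraded, and that the library kit was picked for that reason.

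Between 2437172 and 7979426 reads per pig fell in genes, with a median of 4717511. Reads that mapped uniquely but lay outside genes made up 51.1% to 71.3% of the uniquely mapped reads with a clear position, and averaged 56.8% in groups I and III, 62.5% in group II and 63.0% in group IV. The adipocyte list was present throughout, its 6 measured genes summing to between 2010 and 3428 CPM in every pig (CPM, gene counts scaled to a common library size). The skeletal muscle genes ACTA1 and MYL1 ranged from 0.885 to 1948 CPM in sum, so some pieces of backfat held muscle RNA. The macrophage label was checked on 29 of the 36 listed markers that could be matched to an identifier. Of the 24 that are not members, 20 were abundant enough to test. C3AR1 was listed at 0 in every pig, MARCO, TIMD4 and CSF1R averaged 0.311, 0.471 and 1.79 CPM, and the markers without a matched identifier, among them CD163, C1QB, AIF1, ADGRE1 and HMOX1, were not analysed here.

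The first 3 members belong to the complement system. C1QA encodes the A chain of C1q. In group I its level ran from 3.59 to 26.3 CPM, with a median of 12.3 CPM. In group II the lowest, median and highest levels were 32.1, 34.9 and 68.7 CPM. The 5 pigs of group III had 13.5, 16.2, 24.1, 29.2 and 51.2 CPM, and those of group IV had 16.1, 19.9, 20.3, 31.7 and 32.6 CPM. Every pig of group II was above every pig of group I, while groups III and IV overlapped both.

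VSIG4 encodes a complement receptor of resident macrophages that binds C3b and iC3b and takes part in the uptake of coated particles. Its level in group I was 0.719 CPM in the lowest pig, 4.01 CPM in the median pig and 8.62 CPM in the highest. In group II these values were 9.21, 12.7 and 18.3 CPM. Group III pigs had 2.35, 4.97, 8.53, 10.5 and 11.1 CPM, and group IV pigs 3.95, 7.75, 9.16, 10.2 and 10.8 CPM. Again no pig of group I reached the lowest pig of group II. VSIG4 was also the least abundant in reads, with 3 to 79 counts per pig.

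C5AR1, the receptor for the complement fragment C5a, spanned 2.02 to 11.3 CPM in group I with a median of 5.69 CPM. It spanned 8.51 to 23.7 CPM in group II with a median of 15.4 CPM. In group III the values were 6.81, 8.53, 10.8, 12.5 and 16.03 CPM, and in group IV 9.10, 10.4, 10.7, 11.98 and 15.6 CPM. For this gene 5 of 6 pigs of group II exceeded the highest pig of group I.

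MRC1 encodes the mannose receptor CD206, a lectin through which macrophages take up glycoproteins. Group I pigs ran from 18.2 to 91.1 CPM around a median of 52.9 CPM, and group II pigs from 95.6 to 194 CPM around a median of 109 CPM. The values were 32.4, 67.0, 78.5, 101 and 122 CPM in group III, and 42.8, 57.9, 74.5, 114 and 116 CPM in group IV. Groups I and II did not overlap, and 2 of 5 pigs in each of groups III and IV lay above all pigs of group I.

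F13A1 encodes the A subunit of coagulation factor XIII, the transglutaminase that cross-links fibrin and is stored in macrophages and platelets. In group I it was 3.59 CPM at the lowest, 12.4 CPM at the median and 21.0 CPM at the highest. In group II the same values were 15.3, 24.8 and 42.0 CPM. The 5 values were 9.66, 9.81, 11.3, 16.9 and 28.6 CPM in group III, and 12.1, 12.1, 13.1, 16.7 and 17.5 CPM in group IV. F13A1 had the greatest overlap of the 5, with 3 of 6 pigs of group II and no pig of group IV above the highest pig of group I.

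**Figure D1:**
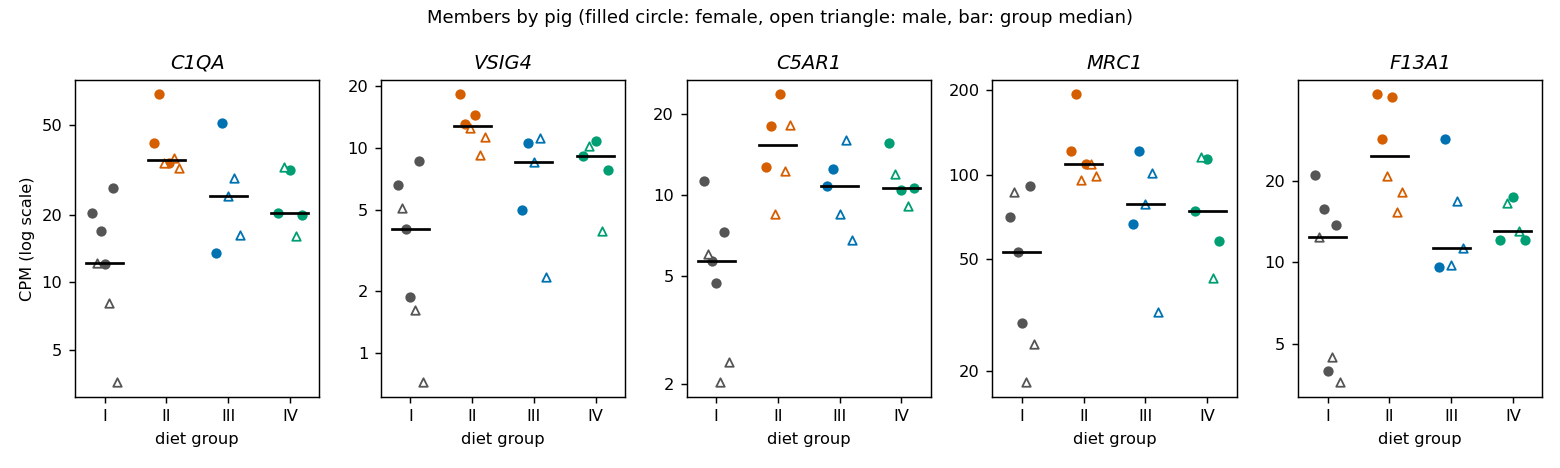
Level of each member in every pig, in CPM on a logarithmic axis, by diet group (I, 7 pigs; II, 6; III, 5; IV, 5). Filled circles are females, open triangles males and bars group medians. C1QA, VSIG4 and MRC1 in group II lie above all pigs of group I, and the medians of groups III and IV lie between those of I and II, except F13A1 in group III (11.3 CPM against 12.4 CPM in group I).

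C1QA, VSIG4 and MRC1 thus had all pigs of group II above all pigs of group I, a pattern held by 0.245% of the 11039 genes tested over all pigs. No member did so in group III (0.208% of genes) or group IV (0.516%). In edgeR's fit the log2 fold change of group II over group I was 1.51 (SE 0.32) for C1QA, 1.64 (SE 0.37) for VSIG4, 1.41 (SE 0.32) for C5AR1, 1.18 (SE 0.32) for MRC1 and 1.34 (SE 0.38) for F13A1. In linear terms the members were 2.26-fold to 3.13-fold higher. The limits were the study's own, an adjusted p under 0.05 and a fold change above 1.3, which the study applied with DESeq2. In this comparison edgeR called 0.0291% of 10323 genes, and DESeq2 called 84 of the same 10323. The members called were 0 of 5 by edgeR and 5 of 5 by DESeq2, from which nothing is read because the members were chosen on it. Since the share of reads outside genes also differed between groups I and II, the fit was repeated with that share as a covariate, and the log2 fold changes were then 1.25 for C1QA, 1.63 for VSIG4, 1.00 for C5AR1, 1.02 for MRC1 and 1.25 for F13A1.

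Groups III and IV were compared with the same 7 control pigs, so their values are not independent of those of group II. The log2 fold changes of group III over group I were 0.91 (C1QA), 0.87 (VSIG4), 0.93 (C5AR1), 0.58 (MRC1) and 0.50 (F13A1), with standard errors of 0.33 to 0.46. Without pig 43 of group III they were 0.54 for C1QA, 0.38 for MRC1 and 0.14 for F13A1. Those of group IV over group I were 0.75, 1.01, 0.99, 0.59 and 0.40 in the same order, with standard errors of 0.31 to 0.42, and that of F13A1 was 0.65 without pig 1, 0.24 without pig 5 and 0.25 without pig 8 of group I. With the 3 cDDGS groups taken as 1 group, the log2 fold changes over group I were 1.12, 1.24, 1.14, 0.83 and 0.85. Each of these 3 comparisons called 0% of genes by edgeR, from 10423, 10388 and 10749 tested, with 830, 1475 and 1695 genes at an unadjusted p under 0.05. DESeq2 called 13, 148 and 162 genes there, and limma-voom with sample weights 0, 0 and 51. Each member thus had its highest group mean in group II and its lowest in group I. Groups III and IV overlapped each other and groups I and II, and their order in mean CPM differed between members.

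Under a change of cell number alone the ratio of the members to each other stays the same. Relative to MRC1, the log2 ratio in group II differed from that in group I by 0.29 for C1QA, 0.47 for VSIG4, 0.13 for C5AR1 and 0.14 for F13A1. In the same order the differences were 0.26, 0.25, 0.33 and -0.04 in group III. In group IV they were 0.17, 0.45, 0.40 and -0.06. These are descriptions without a test, and single pigs of group I varied in these ratios by 0.63, 0.43, 0.45 and 0.50 (SD, n = 7). For C1QA relative to its partner chain C1QC, the log2 ratio of group II differed from that of the controls by -0.05. The corresponding differences were -0.10 with beef tallow (III) and -0.32 with coconut oil (IV). Single control pigs varied in this ratio by 0.59 (SD, n = 7). In bulk tissue, fewer cells of a type and less RNA of these genes per cell cannot be told apart by such values.

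The comparison of group IV with group III asked whether the fat source mattered when cDDGS was in both diets, and played no part in the choice of members. The members did not differ detectably. The log2 fold change of coconut oil over beef tallow was -0.16 (SE 0.32) for C1QA, 0.14 (SE 0.36) for VSIG4, 0.07 (SE 0.24) for C5AR1, 0.02 (SE 0.33) for MRC1 and -0.11 (SE 0.29) for F13A1. The adjusted p-values in edgeR were 0.997 to 0.998. Exact two-sided permutation of the 252 possible splits of the 10 pigs gave p from 0.643 (VSIG4) to 0.960 (F13A1). By edgeR 0% of 10230 genes were called, with 421 at an unadjusted p under 0.05, and DESeq2 and limma-voom also called 0. An interval of 2 standard errors on either side of these values ran from -0.81 to 0.49 for C1QA and from -0.41 to 0.54 for C5AR1, the widest side for any member being 0.87 for VSIG4. In the same comparison the pan-leukocyte list, genes of white blood cells in general such as PTPRC, had 9 of 9 genes higher in group IV. Its median log2 fold change was 0.68, against a median of 0.00 for all genes, of which 49.8% were above 0. The macrophage list outside the members had 13 of 17 genes higher with a median of 0.26. The lipid-associated macrophage list had 5 of 6 higher with a median of 0.53. In the monocyte and recruited macrophage list 1 of 5 was higher, with a median of -0.21. None of the genes of these lists was called.

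The second measure was the movement of the members from pig to pig inside a diet group. It leaves out the difference between diets on which the members were chosen. They were still chosen together, as genes known from macrophages. Each value of log2(CPM + 0.5) was expressed as its deviation from the mean of its diet group. The standard deviation of these deviations was 0.68 for C1QA, 0.77 for VSIG4, 0.57 for C5AR1, 0.70 for MRC1 and 0.72 for F13A1. Counting error of the reads made up 1.81% of this variance for MRC1, 6.55% for C1QA, 8.84% for F13A1, 20.6% for VSIG4 and 21.9% for C5AR1.

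In 16 of the 23 pigs all 5 members lay on the same side of their group means, 8 pigs with all 5 above and 8 with all 5 below. This held for all 7 pigs of group I, of which 4 were above and 3 below, and for 3 of 6 pigs of group II and 3 of 5 in each of the other cDDGS groups. In group I the mean of the 5 genes ran from 2.11 in pig 8 to 4.27 in pig 1 on the log2 scale, a 4.47-fold range. The pigs of group II spanned 1.66-fold, those of group III 2.87-fold and those of group IV 1.84-fold. For the mean of the 5 members the controls thus had the widest range and group II the narrowest, without a test. Group I also had the most pigs and the lowest counts. VSIG4 had 3 to 39 counts per pig there and 26 to 79 in group II, and C5AR1 5 to 62 and 42 to 82. The summed level of the other macrophage genes had its narrowest range in group III, at 244 to 401 CPM.

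**Figure D2:**
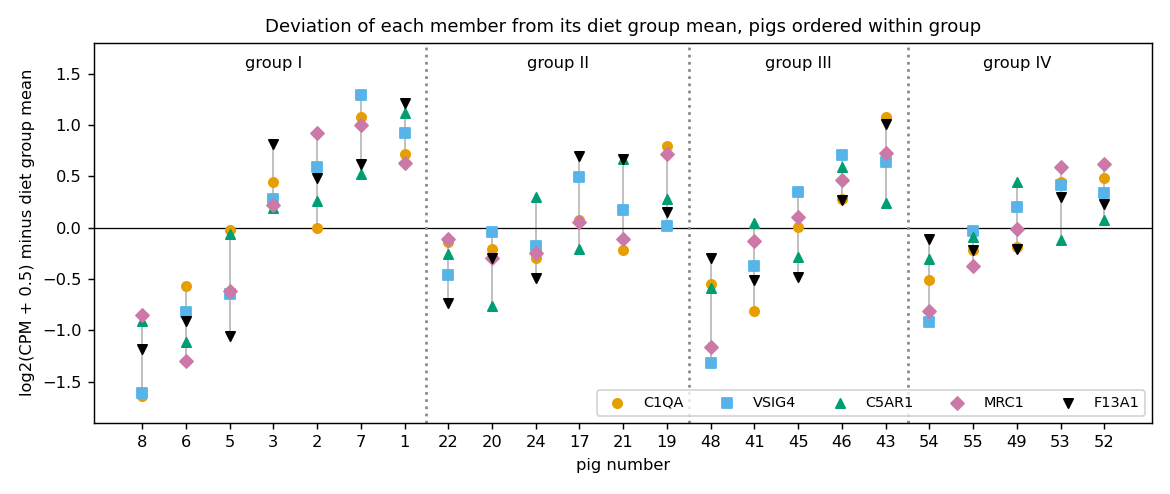
Deviation of each member from its diet group mean on the log2(CPM + 0.5) scale (vertical axis) in each of the 23 pigs (horizontal axis, pig number), ordered within a group by the mean of the 5 genes; grey lines join the lowest and highest member. In group I all 5 members of each pig lie on the same side of 0, from pigs 8, 6 and 5 below to pigs 3, 2, 7 and 1 above.

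All 10 pairs of members were positively correlated over the 23 pigs. Pearson's r was highest for VSIG4 and MRC1, at 0.88 (two-sided permutation within diets, p = 4e-05, adjusted over the 10 pairs 0.00025), with Spearman's rho of 0.89 (p = 4e-05, adjusted 0.0002). It was 0.82 for C1QA and VSIG4 (p = 5e-05, adjusted 0.00025; rho 0.82, p = 0.00011, adjusted 0.000367) and 0.80 for C1QA and MRC1 (p = 8e-05, adjusted 0.000267; rho 0.89, p = 1e-05, the smallest that 100000 resamples can give, adjusted 0.0001). C1QA with C5AR1 was the lowest pair at 0.62 (p = 0.00849, adjusted 0.00849; rho 0.53, p = 0.0169, adjusted 0.0169). The median over the 10 pairs was 0.73 for r and 0.72 for rho, and all 10 had an adjusted p under 0.05 by either measure. After the 2 pigs farthest from the median on the horizontal axis were left out, r was 0.55 to 0.86. C5AR1 was the loosest member, its 4 pairs having the 4 lowest values of rho, 0.53 to 0.65.

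These correlations were not equally strong in every diet. In group I alone r was 0.76 to 0.93 with a median of 0.87, and 8 of 10 pairs had an adjusted p under 0.05 by exact permutation over the 20 pairs of the 2 larger groups (5 of 10 by rho). In group II alone r was 0.14 to 0.99 with a median of 0.29, and 2 of 10 pairs passed by exact permutation, C1QA with MRC1 at 0.99 (p = 0.00972, adjusted 0.0278; rho 0.83) and VSIG4 with F13A1 at 0.92 (p = 0.00139, adjusted 0.0159; rho 1). Without the 2 outlying pigs the former was 0.56 and the latter 0.97. Whether groups I and II differed in r was not tested, and the members' mean had a narrower range in group II, as given above. In groups II, III and IV without the controls, 16 pigs, r was 0.32 to 0.85 with a median of 0.55, and 3 of 10 pairs kept an adjusted p under 0.05 by permutation. All 10 pairs thus passed only with the control pigs included, in a larger sample, and they still passed with any of the 23 pigs left out.

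**Figure D3:**
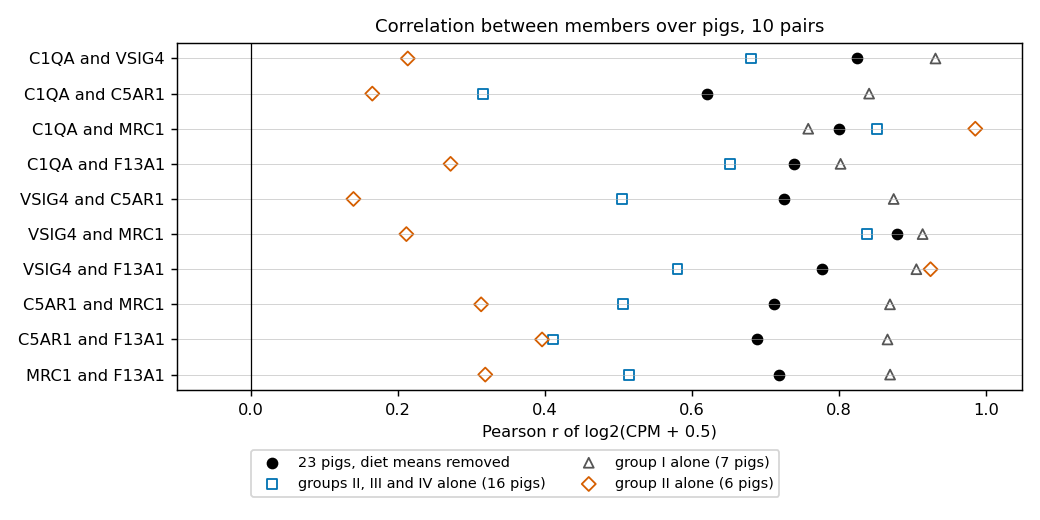
Pearson's r of log2(CPM + 0.5) for each of the 10 pairs of members, over 23 pigs with diet means removed (filled circles), groups II, III and IV alone (squares), group I alone (triangles) and group II alone (diamonds). The 23-pig values lie between 0.62 and 0.88 and the group I values between 0.76 and 0.93, whereas 8 of 10 group II values lie below 0.40.

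Adjustment for sex, for reads outside genes or for RNA integrity left most of the 10 pairs under the threshold. With the deviations taken from the mean of each diet and sex, r was 0.41 to 0.87 and 9 of 10 pairs had an adjusted p under 0.05 by permutation (7 of 10 by rho). With diet means and the share of reads outside genes removed, without sex, r was 0.62 to 0.88 with 10 of 10 pairs, and with the RNA integrity number in place of that share it was 0.69 to 0.88 with 10 of 10. The mean deviation of the members had r = 0.26 with the log2 number of reads in genes, 0.11 with the share of reads outside genes, -0.04 with the RNA integrity number and -0.40 with the share of counts taken by the most abundant gene, over 23 pigs and without a test. The last of these was -0.23 without the 2 pigs with the most extreme members. The pairs were not adjusted for that share, nor for the number of reads in genes beyond the scaling of libraries.

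Each member was then set against the mean deviation of the other 4, among all genes tested over the 23 pigs, as a description. VSIG4 ranked 4 of 11035 genes (r = 0.91), MRC1 ranked 5 (r = 0.87), C1QA 7 (r = 0.83), F13A1 11 (r = 0.81) and C5AR1 29 (r = 0.75). Genes closer to the members than some of the members themselves were hence few. Among the 10 genes outside the set with the highest r to the mean of the 5, ENSSSCG00000015663, which has no symbol in the tables used, came first at 0.94, and 3 more had no symbol. C1QC, the C chain of C1q, followed at 0.94. It lies next to C1QA on chromosome 6 in RefSeq's Sscrofa11.1, and its level ran from 4.04 to 35.2 CPM in group I and from 30.2 to 67.5 CPM in group II. The others with a symbol were FRMD4B at 0.91, IL10RA, a chain of the interleukin-10 receptor, at 0.87, STAB1, a scavenger receptor of macrophages and sinusoidal endothelium, at 0.86, LYVE1, a hyaluronan receptor of lymphatic endothelium and perivascular macrophages, at 0.83, and GPR34 at 0.83.

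For comparison, 6.09% of the 11034 other genes had r above 0.5 with the mean of the members, and the median over all of them was 0.02. In the macrophage list 10 of 20 tested genes other than the members did, with a median of 0.50. CD209, a lectin receptor of macrophages and dendritic cells, had r = 0.80, SLCO2B1 0.80, TYROBP, an adaptor of myeloid receptors, 0.63, and CD14, the co-receptor for endotoxin, 0.62. Other widely used macrophage markers had lower values, with 0.49 for FOLR2, a folate receptor of resident macrophages, 0.25 for CTSS, 0.22 for CD68, 0.33 for MERTK, 0.39 for LGMN and 0.07 for MS4A7. In the list of lectin and scavenger receptors 5 of 8 genes had r above 0.5, with a median of 0.66. Of these, MSR1, STAB1, CD209 and LYVE1 were also on the macrophage list and are counted there too.

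Complement genes ranged widely. The classical complement list had 6 of 16 genes above 0.5 besides the members, with a median of 0.35. CFP, the myeloid-made properdin, had r = 0.73 and ITGAM, a chain of complement receptor 3, 0.63. CFD, adipsin, a product of fat cells, had 0.69, MASP2 0.56 and C2 0.54, while C3 had -0.04, C5 0.06, CFB -0.09 and CFI -0.07. Those 4 genes also had log2 fold changes of 1.42, 1.295, 1.49 and 1.08 in group II over group I, with standard errors of 0.52 to 0.71. Their medians in group II were 23.6, 8.94, 8.88 and 9.07 CPM, against 26.1, 5.51, 8.47 and 8.01 CPM in group I. The highest pigs of group II reached 292, 48.5, 89.4 and 52.2 CPM, and the 2 groups overlapped for each of the 4 genes. The coagulation list besides F13A1 had a median of -0.11 with 2 of 10 genes above 0.5, PROCR at 0.63 and PLAU at 0.55, and F3, tissue factor, had -0.59.

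Lists for other states of macrophages and for other leukocytes are given without a test between lists. The monocyte and recruited macrophage list had a median r of 0.10 with 1 of 8 genes above 0.5 (TLR2, 0.58), and the mean of that list had r = 0.46 (rho 0.53). The lipid-associated macrophage list had a median of 0.26 with 1 of 6 (CTSB, 0.61), and the inflammatory list -0.06 with 0 of 7. The T cell list had 2 tested genes, CD247 at -0.31 and CD2 at -0.03. No gene of the B cell, neutrophil or dendritic cell lists was abundant enough to test, and the summed level of each of these 3 lists stayed at or below 4.42 CPM in all pigs. In the mast cell list 1 of 3 tested genes exceeded 0.5, MS4A2, the beta chain of the IgE receptor, at 0.74, while KIT had 0.12.

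Lists for white blood cells in general, which include macrophages, and for other cell types of the tissue were set against the members in the same way. The pan-leukocyte list had a median r of 0.58 with 5 of 9 genes above 0.5, and the fibroblast and preadipocyte list 0.52 with 4 of 8, led by DCN, a small matrix proteoglycan, at 0.79, FBN1 at 0.70, COL6A2 at 0.68 and COL1A2 at 0.67. All 6 adipocyte genes were negative, from -0.48 for PPARG, the regulator of fat cell formation, to -0.27 for LIPE, hormone-sensitive lipase. The mean of the fibroblast list had r = 0.65 with the members and that of the adipocyte list -0.62. With the mean of the fibroblast list held constant, r between members was 0.45 to 0.82 and 8 of 10 pairs had an adjusted p under 0.05 by permutation (7 of 10 by rho). With that of the adipocyte list held constant it was 0.45 to 0.84, also with 8 of 10 pairs. The muscle and endothelium lists had medians of -0.13 and -0.19.

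**Figure D4:**
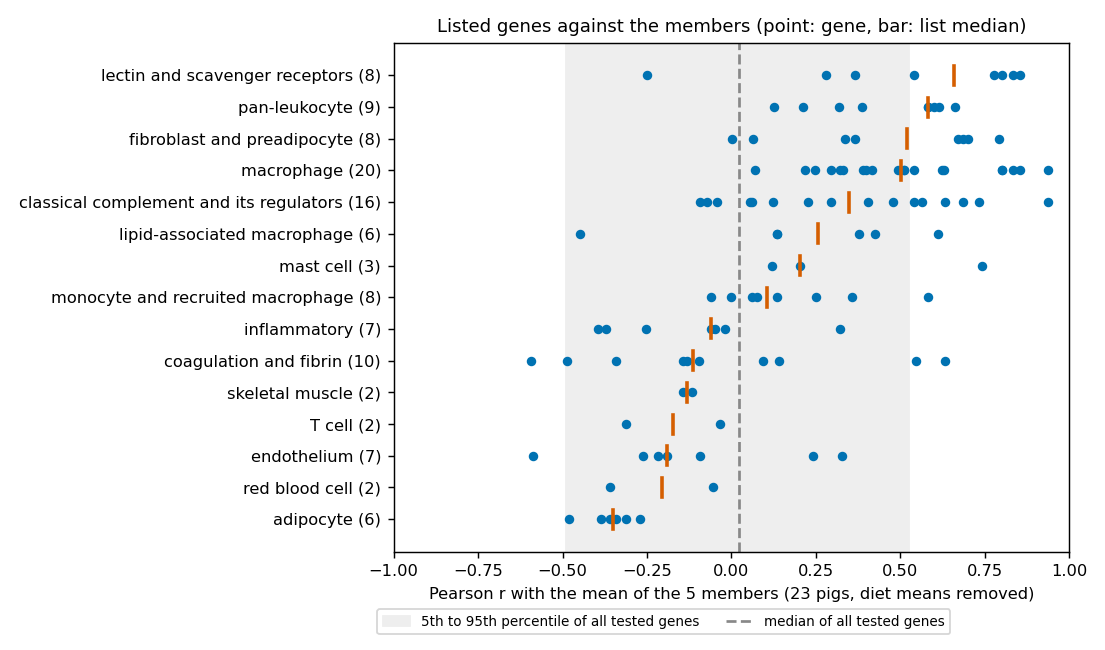
Pearson's r of each tested gene with the mean deviation of the 5 members over 23 pigs (points), by gene list with the number of tested genes, members left out; orange bars are list medians. The shaded band holds the 5th to 95th percentile of all tested genes, -0.49 to 0.52. The lectin, pan-leukocyte, fibroblast and macrophage lists have medians of 0.50 to 0.66, and all 6 adipocyte genes lie below 0. A gene that stands on several lists is shown in each.

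The lists were also compared between diets, as a description since the members were chosen on group II against group I. Of the tested macrophage genes other than the members, 17 of 19 had a positive log2 fold change in group II over group I, with a median of 0.70, against 50.4% of all genes and a median of 0.00. CD209 had 2.00, LYVE1 1.04 and STAB1 0.70, while MS4A7 had -1.46. FOLR2 had -0.10 in group II, -0.08 in III and -0.31 in IV. In group III the same list had 12 of 20 positive with a median of 0.04, and in group IV 15 of 19 with a median of 0.26. The summed level of the 24 macrophage genes outside the set was 177 to 466 CPM in the controls, 360 to 681 CPM in group II, 244 to 401 CPM in III and 242 to 549 CPM in IV, so group I overlapped each of the others. The pan-leukocyte list had 9 of 9 positive in group II with a median of 0.75 and sums of 140 to 370 CPM, against 89.3 to 228 CPM in group I. In group III 3 of 9 were positive with a median of -0.04, and in group IV 9 of 9 with a median of 0.66. The fibroblast list, which followed the members from pig to pig, had medians of 0.10 (II), -0.25 (III) and -0.28 (IV) over group I. Its summed level was 9441 to 17033 CPM in group I and 9460 to 17768 CPM in group II. The adipocyte list had a median of -0.27 in group II, with 1 of 6 positive. The part of each of these lists in the difference of the members between diets was not tested.

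Sex was the third comparison that the choice of members did not use. All 5 members were lower on average in males than in females once the diet was accounted for. The log2 fold change was -0.57 (SE 0.23) for C1QA, -0.48 (SE 0.27) for VSIG4, -0.47 (SE 0.21) for C5AR1, -0.37 (SE 0.25) for MRC1 and -0.67 (SE 0.24) for F13A1. Without pig 2 of group I, MRC1 had -0.58. None passed adjustment over all genes in edgeR, with adjusted p of 0.193, 0.360, 0.231, 0.432 and 0.164, in a comparison that called 0.954% of 10276 genes. Exact two-sided permutation of sex within diets, over 70000 arrangements, gave unadjusted p of 0.0418, 0.0610, 0.0200, 0.107 and 0.0371 in the same order. The 12 females and 11 males overlapped widely for every member. For C1QA the lowest, median and highest levels were 12.1, 23.4 and 68.7 CPM in females and 3.59, 24.1 and 35.8 CPM in males, so that the males' median was not below the females'. For F13A1 they were 3.95, 16.7 and 42.0 CPM in females and 3.59, 13.1 and 20.9 CPM in males.

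By diet the mean of the males was below that of the females in 19 of the 20 combinations of member and diet. In group I, with 4 females and 3 males, it ran from -0.72 for MRC1 to -1.29 for C1QA on the log2 scale, the widest of the 4 diets for every member but F13A1, which differed by -1.01 in group II. The exception was F13A1 in group IV at 0.10. Whether the difference depends on diet was not tested, and the members are not independent of each other, as shown above.

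**Figure D5:**
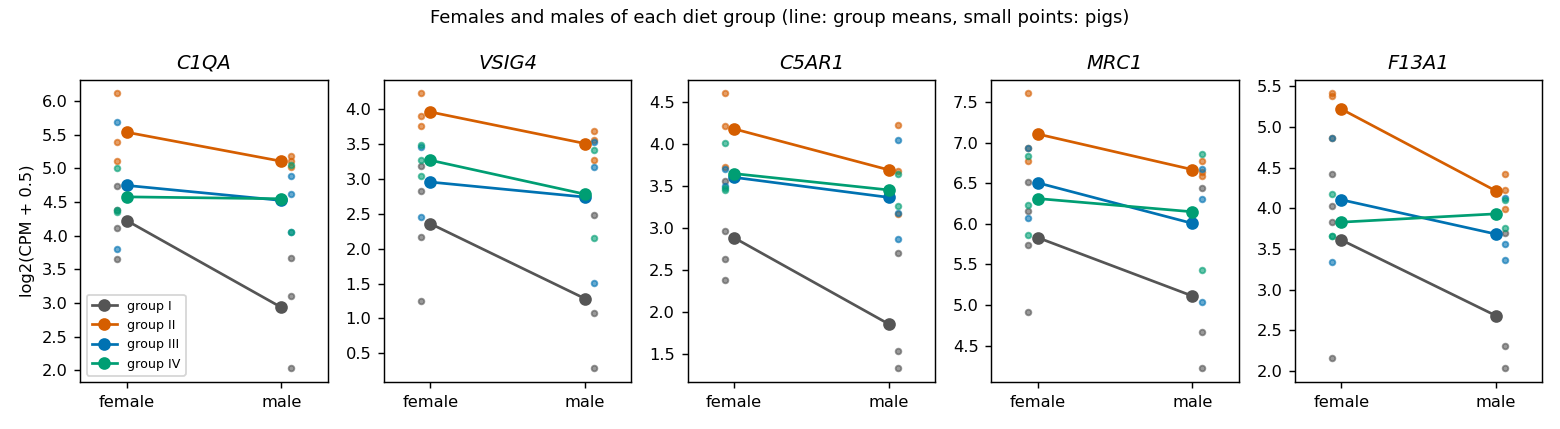
Level of each member as log2(CPM + 0.5) in females and males of each diet group; large points joined by a line are group means and small points are pigs. The line falls from females to males in every diet and member except F13A1 in group IV, and is steepest in group I for C1QA, VSIG4, C5AR1 and MRC1.

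Of all 10276 genes tested between the sexes, 46.4% had a log2 fold change above 0 in males over females. Among the macrophage genes outside the set, 17 of 19 were lower in males, with a median log2 fold change of -0.34 against -0.02 for all genes. LYVE1 (-0.98, SE 0.23, adjusted p = 0.0386 by edgeR) and CD209 (-1.36, SE 0.32, adjusted p = 0.0366) were called lower, and no other gene of that list was called. In the lectin list MRC2, a collagen receptor of fibroblasts and relative of MRC1, was also called (-0.61, SE 0.15, adjusted p = 0.0465). In the complement list 13 of 15 genes were lower and MASP1, a protease of the lectin pathway, was called (-1.298, SE 0.29, adjusted p = 0.0282). The fibroblast list had 7 of 8 genes lower with a median of -0.43, and COL1A2 (-0.82, SE 0.18, adjusted p = 0.0282) and FBN1 (-0.57, SE 0.12, adjusted p = 0.0259) were called. The adipocyte list had a median of 0.17 with 0 of 6 called. These calls lie near the threshold. LYVE1 remained called in 5 of 7 alternative fits and in 9 of 23 fits with a pig left out, CD209 in 4 of 7 and 10 of 23, and MRC2 in 6 of 8 and 7 of 23. COL1A2 and FBN1 remained called in 8 of 8 alternatives and in 15 and 16 of 23 fits with a pig left out, and MASP1 in 7 of 7 and 18 of 23. The skeletal muscle genes had a median of 2.42 in males over females, not called. The part of fibroblast or muscle RNA in the lower macrophage genes of males was not tested.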

How the data were processed

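Backfat RNA of 23 pigs was sequenced with single-end reads on libraries from a stranded total RNA kit. The authors mapped the reads with TopHat to the pig genome and counted them per gene, and the deposited values are raw read counts, 1 table per pig with 25322 genes and 5 summary rows, which were kept out of library sizes. The sources name both RSEM and HTSeq for counting, and the summary rows are those of HTSeq; whether strand was used in counting is not given in the sources used here. Symbols came from a gene name table for 11804 identifiers and from the study's tables for 83 more. Neither the members nor the gene lists are independent of these data, since both were chosen with earlier results of these data known.

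Counts were filtered with filterByExpr, scaled by TMM and tested with edgeR 4.0.16's quasi-likelihood test with Benjamini-Hochberg adjustment over all genes tested. A gene was called at an adjusted p under 0.05 and a fold change above 1.3. Each comparison used only its own groups, and sexes were compared over all pigs with diet as covariate. CPM are TMM-scaled. Correlations used deviations of log2(CPM + 0.5) from diet means with 100000 permutations of pigs within diets. DESeq2 1.42.0, limma 3.58.1, other scalings, filters, covariates and leaving out each pig were the alternatives. In data simulated for group II against group I with 10178 genes, edgeR called 102 to 124 of 200 genes changed 2-fold. Named were the members, C1QC and C1QB, up to 8 abundant genes a list and the 10 genes most like the members. Other listed genes were named after their values were seen. Pigs are separate animals, the precision of counts per pig covers counting error only, and pooling of libraries for sequencing is not given per pig.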

Additional observations from a re-analysis of the deposited data

Results flagged for a closer look

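Pig 19 of group II stood apart from the other 5 pigs of its group in 2 members. C1QA was 68.7 CPM there, against 41.6 CPM in the next pig, and MRC1 was 194 CPM, against 122 CPM in the next. The gap to the nearest pig took 74.2% of the group's range for C1QA and 73.2% for MRC1, above the 95% limit of Dixon's test for 6 values. VSIG4, C5AR1 and F13A1 were not set apart in that pig. These were 2 flags among 20 combinations of member and diet group, of which chance alone flags about 1 in 20. Without this pig the log2 fold change of group II over group I was 1.302 for C1QA and 0.99 for MRC1, and all 10 pairs of members still had an adjusted p under 0.05 by permutation. In group II alone the r of 0.99 between C1QA and MRC1 rests on it.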

How the results depend on the processing

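The median log2 fold change of the 5 members moved by less than 0.70 under every alternative in each of the 6 comparisons. That limit is the median SD of the members between pigs within a diet. It is larger than the median of group IV over group III (0.02) and the size of that of males over females (-0.48), so it says little about them. With limma-voom the median of group III over group I was 1.19, against 0.87. Leaving out single pigs gave medians of 1.25 to 1.62 for group II over group I, 0.54 to 1.046 for group III, 0.59 to 0.96 for group IV, 0.95 to 1.23 for the 3 groups together, -0.19 to 0.21 for group IV over group III and -0.60 to -0.40 for males over females. Scaling by total gene counts moved the median of all genes by 0.11 in group II over group I and by -0.18 in males over females. Under it the members' medians were 1.47 and -0.63, and the split of genes called between sexes was 9 higher and 143 lower, against 27 and 71.

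The number of genes called depended on the processing. For group II over group I it was 3, and 84 with DESeq2, 5 with sex as covariate and 0 with total counts, with RNA integrity, with reads outside genes or with all 23 pigs in 1 fit, and 0 to 17 with a pig left out. For group III it was 0, 13 with DESeq2, 1 without the low-count filter and 0 to 1 with a pig left out. For group IV it was 0, 148 with DESeq2 and 0 to 116, the last without pig 53. For the 3 groups together it was 0, 162 with DESeq2, 51 with limma-voom, 2 without the filter, 1 with all pigs in 1 fit and 0 to 43, the last without pig 1. For group IV over group III it was 0, and 1 with reads outside genes as covariate. For the sexes it was 98, 243 with DESeq2, 152 with total counts, 158 without the filter, 57 with RNA integrity, 57 with reads outside genes and 33 to 187 with a pig left out, fewest without pig 43 and most without pig 5.

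Group IV over group III changed sign for single members, all near 0: with limma-voom VSIG4 was -0.095, C5AR1 -0.065 and MRC1 -0.22, with reads outside genes C5AR1 was -0.028, with sex MRC1 was -0.020, and with RNA integrity F13A1 was 0.024. With a pig left out the ranges were -0.32 to 0.21 for C1QA, -0.079 to 0.33 for VSIG4, -0.064 to 0.25 for C5AR1, -0.19 to 0.21 for MRC1 and -0.23 to 0.25 for F13A1. Of the 10 pairs of members, 10 passed with each pig left out and 3 in groups II, III and IV alone, where fewer pigs were tested; this setting and the adjustments for fibroblast and adipocyte lists were chosen after seeing the data. With at least 10 counts in every pig, VSIG4 and C5AR1 could not be fitted in the comparisons with group I or between sexes. No paired analysis was possible because no pig number occurs in more than 1 group. VSIG4, at 3 to 79 reads per pig, and C5AR1, at 5 to 111, are the members most limited by depth.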
